A study of Rattus norvegicus with 20 samples.

Results

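The core circadian clock genes were examined here in the cortical collecting duct of rats under constant vasopressin action. The set held 10 genes, namely Arntl, Clock, Npas2, Per1, Per2, Per3, Cry1, Cry2, Nr1d1 and Dbp, out of 32545 genes in the count table. Members were taken by symbol, each symbol matched 1 row, and all 10 passed the filter on low counts that left 14472 genes for testing.

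Cortical collecting ducts were microdissected from the collagenase-digested left kidney of male Sprague-Dawley rats aged 5 weeks, and RNA was sequenced from 20 rats. Every rat, controls included, carried a subcutaneous minipump releasing DDAVP at 5 ng/hr; DDAVP (desmopressin) is a vasopressin analogue that acts on the V2 receptor of the principal cell. Control rats received 25 mL/day of water in gelled food and water-loaded rats received 50 mL/day, a model of vasopressin escape, in which the kidney excretes water again although vasopressin stays high. Ducts were collected after 1 day (3 control and 3 water-loaded rats), 2 days (4 and 4) and 4 days (3 and 3). No group without DDAVP was among the samples, so levels cannot be set against untreated rats. A dissected duct contains principal and intercalated cells, and fewer cells of a type cannot be told apart from less RNA per cell.

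The clock is a transcription feedback loop. BMAL1, the product of Arntl, pairs with CLOCK or its relative NPAS2 and switches on genes that carry E-box sequences, among them the Per and Cry genes, Nr1d1 and Dbp. PER and CRY proteins accumulate and repress their own activators; REV-ERBα, the product of Nr1d1, represses Arntl; and DBP, a PAR bZip factor, drives output genes through D-boxes. In most peripheral tissues, kidney included, Arntl and Npas2 peak at about the opposite time of day from Nr1d1 and Dbp, with the Per genes peaking after those. Sodium channel and aquaporin genes of the collecting duct are among known outputs of this loop.

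Each rat gave 1 library at 1 time point, and no source used here gives the hour of dissection. The values below are therefore levels at unknown phase. A difference between days, or between treatments, cannot be told apart from a difference in the time of dissection or of feeding.

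Libraries held 33527913 to 74868598 reads on genes, and 3 counts corresponded to 0.0414 to 0.0926 CPM (counts scaled to library size, with TMM factors). Genes with at least 3 counts numbered 11191 to 14313 per library. The libraries of day 1 control rat 1 and day 1 water-loaded rat 2 stood apart, with TMM scaling factors of 0.645 and 0.686 against a range up to 1.22. All 11 principal cell markers and all 8 intercalated cell markers were above 0 in every library, with summed levels of 15273 to 71482 CPM and 7849 to 13545 CPM. Proximal tubule markers summed to 8045 CPM in day 1 water-loaded rat 2, 2710 CPM in day 2 control rat 1 and 993 CPM in day 1 control rat 1. In the other libraries they summed to 53.2 to 438 CPM. Loop and distal tubule markers summed to 13020 CPM in day 1 water-loaded rat 2, 6502 CPM in day 1 control rat 3 and 5689 CPM in day 2 water-loaded rat 4. Elsewhere these summed to 203 to 2524 CPM.

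Promoter sequences were read from RefSeq (GRCr8 build, 250 bases before each start), since the motifs through which the loop acts are part of what the members share. Of the 10 genes, 9 matched, with 11 start sites, Arntl being listed there as Bmal1. Both strands were searched for the E-box CACGTG, the variant CACGTT, the D-boxes TTACGTAA and TTATGTAA, and the half-site AGGTCA bound by ROR and REV-ERB receptors. CACGTT matched at 3 of the 9 genes (Per2, Cry2, Nr1d1) against 4.07% of 33469 rat promoters of the same length, CACGTG at 1 (Nr1d1) against 5.59%, TTATGTAA at 1 (Per2) against 0.828%, AGGTCA at 1 (Arntl) against 14.1%, and TTACGTAA at 0 against 0.108%. Matches were counted per gene and the shares per promoter. The windows with CACGTT held 62% (Per2), 68.4% (Cry2) and 61.2% (Nr1d1) G and C, against a median of 51.2% over all promoters. Shares at promoters of like content were not computed. Dbp, Clock, Npas2, Per1 and Per3 had no match to these letters in their windows. The windows of Npas2, Per1 and Per3, and those of the second starts of Clock and Nr1d1, lay wholly inside the RefSeq span of the gene and so upstream of an internal start, and those of Arntl, Per2 and the first start of Clock in part. The window of Nr1d1, the member that edgeR called between days below, is shown whole for the start at which it lies outside the gene (chr10:84231813-84232062, minus strand). The other matches are shown as 30 bases, with matched letters in capitals (AACGTG is CACGTT on the other strand).
Nr1d1, upstream start: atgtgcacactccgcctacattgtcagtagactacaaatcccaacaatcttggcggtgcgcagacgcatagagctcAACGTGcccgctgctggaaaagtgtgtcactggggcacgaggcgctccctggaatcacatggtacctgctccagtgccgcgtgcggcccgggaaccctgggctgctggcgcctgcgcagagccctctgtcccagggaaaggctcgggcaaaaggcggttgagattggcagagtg
Nr1d1, second start, E-box, chr10:84229628-84229657, minus strand: tgtcagctcccaCACGTGtctggggatcct
Per2, E-box variant, chr9:99497038-99497067, minus strand: aacgcgcgcggtCACGTTttccactatgtg
Per2, D-box, chr9:99497167-99497196, minus strand: ccatgtgcgtcTTATGTAAagagagcgacg
Cry2, E-box variant, chr3:98860632-98860661, minus strand: acacatggtgggAACGTGagggggcggggc
Arntl, ROR element, chr1:176766298-176766327, plus strand: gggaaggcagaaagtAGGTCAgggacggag
The first base of the match lay at position -174 at the upstream start of Nr1d1 and at -191 at its second start, counted from the start site. The Per2 matches began at -62 (CACGTT) and -192 (TTATGTAA), the Cry2 match at -212 and the Arntl match at -15. A match of letters is a description of the sequence and not evidence that a factor was bound in these ducts.

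All 10 clock genes were detected in the collecting duct, at levels that ranged widely per unit of transcript length. By mean FPKM (the deposited values, scaled to transcript length and library size) over 20 rats, Dbp stood first at 42.3 ± 22.6 (SD) and Nr1d1 second at 15.0 ± 14.4. Cry2 (6.88 ± 3.63), Per2 (6.33 ± 4.86), Per3 (6.08 ± 4.09), Cry1 (5.82 ± 4.33) and Arntl (5.72 ± 4.25) lay close together. Clock (3.55 ± 2.28), Per1 (1.48 ± 0.841) and Npas2 (1.10 ± 1.04) were lowest. The mean ± SD ranges of every neighbouring pair in this order overlapped. Dbp was above Nr1d1 in 17 of 20 libraries and Clock above Per1 in 16, whereas Per2 was above Per3 in 7.

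**Figure D1:**
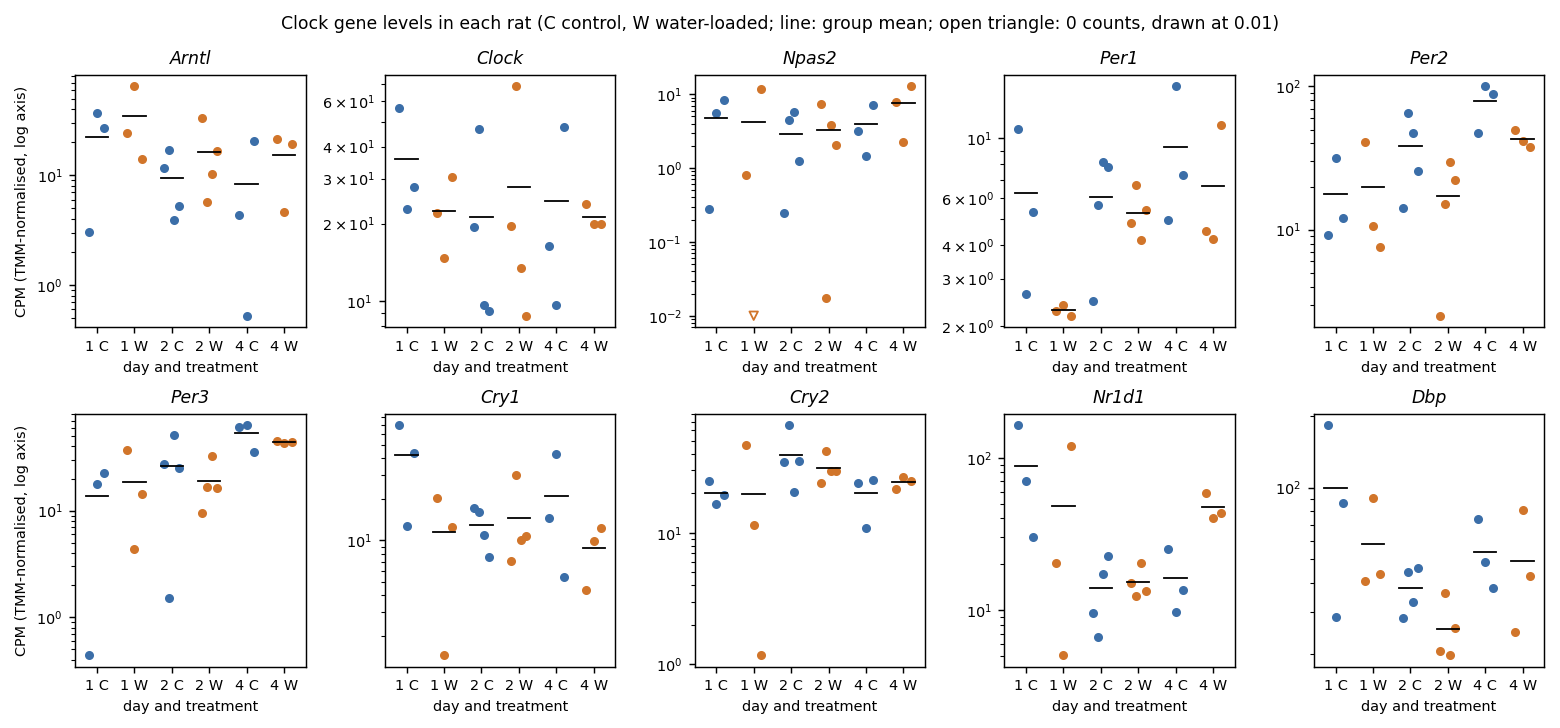
Level of each clock gene in each rat, as TMM-normalised CPM on a log axis, by day (1, 2, 4) and treatment (C, control; W, water-loaded); lines are group means and an open triangle marks 0 counts. Points of control and water-loaded rats overlap in nearly every panel, with the 8 day 2 values of Nr1d1 between 6.67 and 22.6 CPM.

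Rats of 1 group differed widely from each other. The SD of log2 CPM within groups was 1.10 for the median member, against 1.40 for the median of all genes tested. It was largest for Npas2 (2.61, above 91.3% of genes tested), followed by Per3 (1.72) and Arntl (1.53). The smallest values were those of Per1 (0.70) and Dbp (0.72), and 21.7% of genes had a lower SD than Per1. The spread was thus below that of the median gene tested for most members, while 3 of 10 exceeded it. The members also had higher levels, with a median of mean log2 CPM of 4.31 against 2.86 for all genes tested. Genes of like level were not compared.

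Among the activators, Arntl (ENSRNOG00000014448) varied over a wide range between rats, and its level did not pass the test between any groups. Day 1 control rats had 3.07, 36.7 and 26.8 CPM and day 1 water-loaded rats 24.5, 65.2 and 14.1 CPM. At day 2 the controls had 11.8, 17.2, 3.94 and 5.30 CPM and the water-loaded rats 33.1, 5.71, 10.3 and 16.8 CPM. At day 4 the controls had 4.32, 0.525 and 20.4 CPM and the water-loaded rats 21.4, 4.62 and 19.5 CPM. The groups overlapped at each day, and the lowest value, day 4 control rat 2, rested on 17 counts. The fitted log2 difference of water load minus control, averaged over days, was 0.76 (SE 0.60, 95% interval -0.50 to 2.02, edgeR adjusted p = 0.675). Arntl was the 1 member whose fitted difference was above 0 at each of the 3 days.

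Clock (ENSRNOG00000002175), the partner of BMAL1, ranged from 8.74 to 68.9 CPM with a median of 19.95 CPM over the 20 rats. Its water load difference was -0.17 (SE 0.45), and its day 2 minus day 1 difference was -0.22 (SE 0.53). Npas2 (ENSRNOG00000013408), which can take the place of CLOCK, ran from 0 to 12.9 CPM with a median of 3.49 CPM. It had 0 counts in day 1 water-loaded rat 2, which at that depth allows up to 0.0794 CPM (3 counts, counting error only), and 1 count in day 2 water-loaded rat 2. The 2 genes therefore differed in how evenly they were found, with within-group SDs of 0.96 and 2.61 on the log2 scale.

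Of the period genes, Per2 and Per3 had higher levels at day 4 than at day 1 in most rats. Day 4 minus day 1 was not tested on its own. Neither gene passed the edgeR test for day 4 minus day 2 or for any difference between days. Per2 (ENSRNOG00000020254), a repressor of CLOCK and BMAL1, had 9.23, 31.6 and 12.1 CPM in day 1 controls and 41.2, 10.6 and 7.52 CPM in day 1 water-loaded rats. Day 2 controls had 14.1, 65.4, 47.3 and 25.6 CPM and day 2 water-loaded rats 2.51, 15.0, 29.5 and 22.1 CPM. Day 4 controls had 47.3, 101 and 88.1 CPM and day 4 water-loaded rats 50.0, 41.3 and 38.0 CPM. At day 4, 5 of 6 rats exceeded every day 1 rat, while 2 of 6 exceeded every day 2 rat. How often other genes reach such partial counts between days was not computed, here or for the members below. The log2 difference of day 4 minus day 2 was 1.18 (SE 0.52, 95% interval 0.10 to 2.27), with an edgeR p of 0.0344 and an adjusted p of 0.327, and for any difference between the 3 days the adjusted p was 0.108 (0.0338 by DESeq2 and 0.0491 by limma on filtered log2(FPKM + 1), below 0.05 in 2 of 29 alternatives).

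Per3 (ENSRNOG00000018413), a period gene that is not needed for the core loop, followed a similar order of days. Day 1 rats had 0.442, 17.6 and 22.7 CPM (control) and 37.1, 4.34 and 14.5 CPM (water-loaded). Day 2 rats had 27.5, 1.52, 51.7 and 25.1 CPM (control) and 9.49, 16.5, 32.9 and 16.4 CPM (water-loaded). Day 4 rats had 60.9, 63.2 and 35.4 CPM (control) and 45.3, 42.7 and 43.7 CPM (water-loaded). Of the day 4 rats, 5 of 6 lay above all day 1 rats and 2 of 6 above all day 2 rats, and the 2 treatments overlapped at each day. The day 4 minus day 2 difference of Per3 was 1.11 (SE 0.68, edgeR adjusted p = 0.525). The adjusted p for any difference of Per3 between days was 0.263.

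Per1 (ENSRNOG00000007387), the period gene that also responds directly to glucocorticoid and other acute signals, was low, at 2.18 to 15.7 CPM. Its day 1 water-loaded values of 2.28, 2.38 and 2.18 CPM lay below the day 1 control values of 10.8, 2.64 and 5.31 CPM. The groups did not overlap, as was the case for 10.9% of all genes tested at that day, and the log2 difference was -1.46 (SE 0.91, edgeR adjusted p = 0.455). At day 2 and day 4 the treatments overlapped, with differences of -0.19 (SE 0.77) and -0.49 (SE 0.89). Per1 and Dbp were the members with a fitted difference below 0 at each of the 3 days.

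The cryptochromes, which complete the repressor complex, did not pass the test in any comparison. Cry1 (ENSRNOG00000006622) had 69.0, 12.6 and 43.3 CPM in day 1 controls and 20.2, 1.46 and 12.6 CPM in day 1 water-loaded rats. The groups overlapped, and the log2 difference was -1.87 (SE 0.94, 95% interval -3.84 to 0.11, edgeR adjusted p = 0.347). Averaged over days, the difference of Cry1 was -0.98 (SE 0.51), with an edgeR p of 0.0694 and an adjusted p of 0.425, the smallest p of any member in that comparison. Cry2 (ENSRNOG00000007478) ran from 1.18 to 65.7 CPM. Its level was 20.4 CPM or more in all 8 day 2 rats, and 4 of 6 day 1 rats were below all of these. The day 2 minus day 1 difference of Cry2 was 0.80 (SE 0.53, edgeR adjusted p = 0.396).

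Nr1d1 (ENSRNOG00000009329), the repressor of Arntl, was the only member that edgeR called lower at day 2 than at day 1. Day 1 controls had 163, 70.8 and 30.04 CPM and day 1 water-loaded rats 20.3, 5.06 and 119 CPM. Day 2 controls had 9.52, 6.67, 17.2 and 22.6 CPM and day 2 water-loaded rats 15.1, 12.3, 20.4 and 13.4 CPM. Day 4 controls had 25.2, 9.63 and 13.6 CPM and day 4 water-loaded rats 58.6, 40.2 and 43.5 CPM. Of the day 1 rats, 4 of 6 were above all 8 day 2 rats and 1 was below all of them, so the days overlapped. Averaged over treatments, Nr1d1 was 4.45-fold lower at day 2 than at day 1 (log2 difference -2.15, SE 0.54, 95% interval -3.29 to -1.02, edgeR adjusted p = 0.0269).

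The call was lost without either of the 2 day 1 rats with the highest levels. Without day 1 control rat 1 (163 CPM) the difference of Nr1d1 was -1.75 with an edgeR adjusted p of 0.0867, and without day 1 water-loaded rat 3 (119 CPM) it was -1.20 with an adjusted p of 0.128. Without both of the outlying day 1 libraries it was -2.03 with an adjusted p of 0.0180. In RefSeq the 3′ end of Nr1d1 overlaps that of Thra, the thyroid hormone receptor alpha gene on the opposite strand, and whether strand was used in counting is not given in the sources used here. Thra fell as well from day 1 (46.7 to 357 CPM, median 137) to day 2 (58.6 to 102 CPM, median 70.1), by 1.01 on the log2 scale (SE 0.27, edgeR adjusted p = 0.0352). The part of shared reads in the fall of Nr1d1 was not tested.

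At day 4 the Nr1d1 values of the 3 water-loaded rats lay above those of the 3 controls, without overlap. Groups were separated in this way for 14.7% of all genes tested at day 4. The log2 difference was 1.56 (SE 0.83, 95% interval -0.19 to 3.30, edgeR adjusted p = 0.737). At day 1 the fitted difference of Nr1d1 was -0.87 (SE 0.82), and the test of whether the water load difference changed between days gave an adjusted p of 0.735.

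Dbp (ENSRNOG00000021027), the output factor of the loop, had its highest level in day 1 control rat 1 and its lowest in a day 2 rat. Day 1 controls had 182, 28.6 and 86.5 CPM and day 1 water-loaded rats 40.4, 90.9 and 43.6 CPM. Day 2 controls had 28.5, 44.5, 33.1 and 46.2 CPM and day 2 water-loaded rats 20.7, 36.3, 19.9 and 25.8 CPM. Day 4 controls had 74.0, 48.9 and 37.8 CPM and day 4 water-loaded rats 24.9, 80.9 and 42.5 CPM. At day 1, 3 of 6 rats exceeded all day 2 rats, and the other day 1 rats lay within the day 2 range. The day 2 minus day 1 difference of Dbp was -1.28 (SE 0.38, 95% interval -2.07 to -0.49), and its edgeR adjusted p of 0.0512 missed the threshold of 0.05.

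Between days, 1 member (Nr1d1) of 10 was called at an edgeR adjusted p under 0.05 for any difference among the 3 days averaged over treatments (adjusted p = 0.0401), against 8.33% of all genes tested, and 3 had an unadjusted p under 0.05 (27.4% of all genes). This call was kept in 11 of 29 alternatives, and DESeq2 called 3 members, Nr1d1, Dbp and Per2. The same 1 of 10 was called for day 2 minus day 1, against 5.83% of all genes, and 2 had an unadjusted p under 0.05 (24% of all genes), and DESeq2 called 2, Nr1d1 and Dbp. The edgeR shares of the members are near the background, and the DESeq2 counts are given here without a share over all genes. For day 4 minus day 2, edgeR called 0 members (0.401% of all genes), with 1, Per2, at an unadjusted p under 0.05 (13.4% of all genes) and 0 called by DESeq2. Among control rats alone edgeR called 0 (2.45% of all genes), with 2 at an unadjusted p under 0.05 (22.5% of all genes) and 1, Nr1d1, called by DESeq2. Among water-loaded rats alone edgeR called 0 (0.263%), with 0 at an unadjusted p under 0.05 (12.1% of all genes) and 0 by DESeq2. For day 2 minus day 1, 4 of 10 members had a difference above 0 (55.9% of all genes). The median log2 difference of the 10 members was -0.38 for day 2 minus day 1 and 0.60 for day 4 minus day 2, against 0.15 and -0.12 over all genes tested. The 2 contrasts share the day 2 rats. The days overlapped for all 10 members in both contrasts, whereas day 2 did not overlap day 1 for 2.23% of all genes tested, nor day 4 for 1.2%.

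Between treatments no clock gene was called. At day 1, edgeR called 0 of 10 members and 0% of all genes tested, with 0 members at an unadjusted p under 0.05 (15.6% of all genes) and 0 called by DESeq2. At day 2 the values were again 0 of 10 and 0% called, with 0 members at an unadjusted p under 0.05 (5.23% of all genes), and at day 4 0 of 10 and 0% called, with 0 members at an unadjusted p under 0.05 (7.22%). Averaged over days 0 of 10 members were called, against 0.159% of all genes, with 0 members at an unadjusted p under 0.05 (13.5%). The test of a changing water load effect called 0 of 10 and 0% of all genes, with 0 members at an unadjusted p under 0.05 (8.56%). DESeq2 called 0 members in each of these comparisons as well. The treatments did not overlap for 0 members at day 2 (4.23% of all genes tested) and for 0 over all 20 rats (0.0276%).

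The intervals of the averaged water load differences were wide. For Clock it ran from -1.10 to 0.77, for Per2 from -1.53 to 0.30, for Per3 from -1.30 to 1.09, for Cry2 from -0.94 to 0.89 and for Nr1d1 from -0.67 to 1.21, each on the log2 scale. Dbp had the narrowest interval, from -1.15 to 0.18, and Npas2 the widest, from -1.73 to 2.38. The intervals of all 10 members included 0. A test that misses its threshold does not show that the treatments had equal levels.

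**Figure D2:**
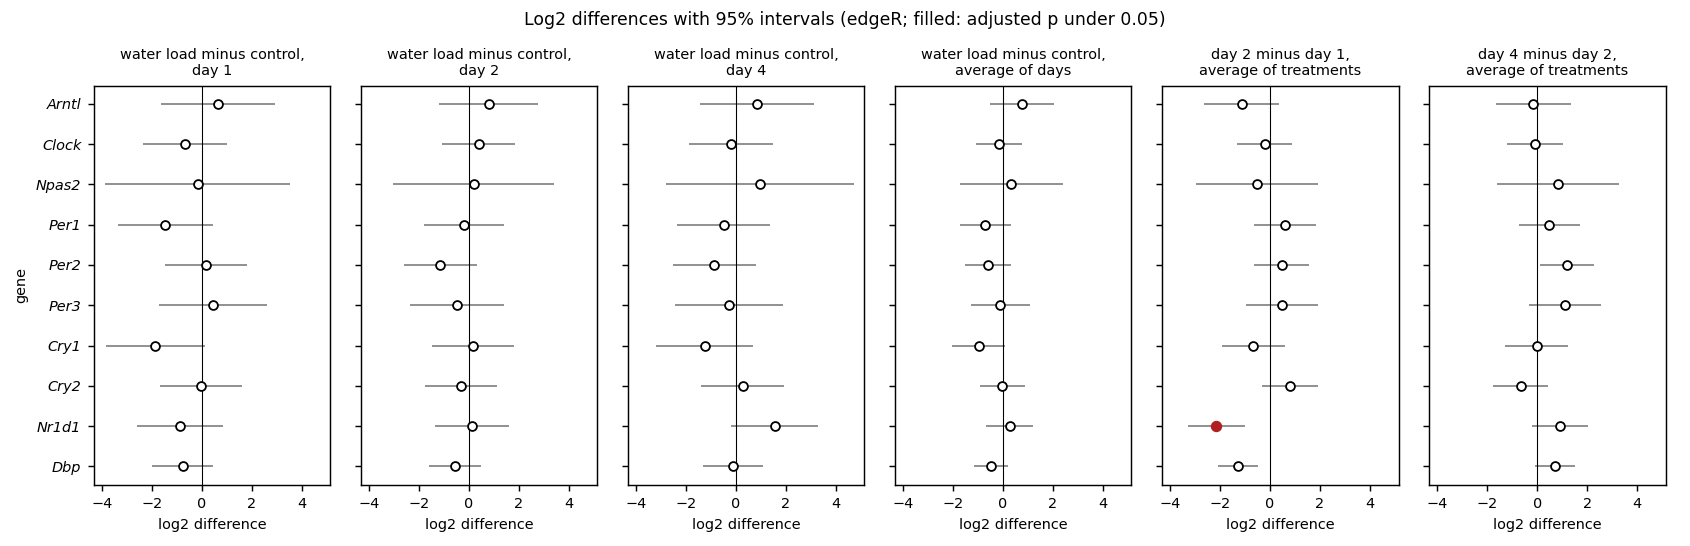
Log2 difference (points) with 95% interval (lines) of each clock gene in 6 comparisons from the edgeR fit; the filled point has an adjusted p under 0.05. The 1 filled point is Nr1d1 for day 2 minus day 1, at -2.15.

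Pairs of clock genes with a known phase relation were compared across the 20 rats as deviations of log2 CPM from each rat's group mean, in 6 pairs. Arntl and Dbp, which peak at opposite times in a running clock, had a Pearson r of -0.44 (permutation p = 0.148, adjusted over the 6 pairs 0.297) and a Spearman rho of -0.43 (permutation p = 0.138, adjusted 0.288). The r was -0.48 within day 1, -0.36 within day 2 and -0.48 within day 4, and -0.37 without the 2 rats farthest from the Arntl median. The relation was negative in each of these and did not pass the permutation test.

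Arntl and Nr1d1, its repressor, had an r of -0.37 (permutation p = 0.140, adjusted 0.297; rho -0.26, permutation p = 0.352, adjusted 0.528). The r of this pair was -0.75 within day 1, -0.54 within day 2 and 0.47 within day 4, so the direction did not hold in each day, and it was -0.45 without the 2 farthest rats. Arntl and Npas2, which peak together, had an r of 0.29 (permutation p = 0.203, adjusted 0.305; rho 0.37, permutation p = 0.144, adjusted 0.288). Within days their r was 0.03, 0.44 and 0.90 at days 1, 2 and 4, and it was 0.14 without the 2 farthest rats.

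The other 3 pairs join genes of like phase. Nr1d1 and Dbp had an r of -0.11 (permutation p = 0.719, adjusted 0.863; rho -0.14, permutation p = 0.624, adjusted 0.749), with -0.13, -0.15 and 0.03 at days 1, 2 and 4. Without the 2 farthest rats the r was 0.19, and without day 1 water-loaded rat 2 alone it was 0.16. Dbp and Per3 had an r of -0.54 (permutation p = 0.109, adjusted 0.297; rho -0.45, permutation p = 0.0984, adjusted 0.288), with -0.80, -0.37 and 0.29 at days 1, 2 and 4, and -0.27 without the 2 farthest rats. Per1 and Per2 had an r of 0.04 (permutation p = 0.864, adjusted 0.864; rho 0.06, permutation p = 0.801, adjusted 0.801), with -0.54, 0.33 and 0.44 by day, and -0.03 without the 2 farthest rats. None of the 6 pairs passed the permutation test.

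**Figure D3:**
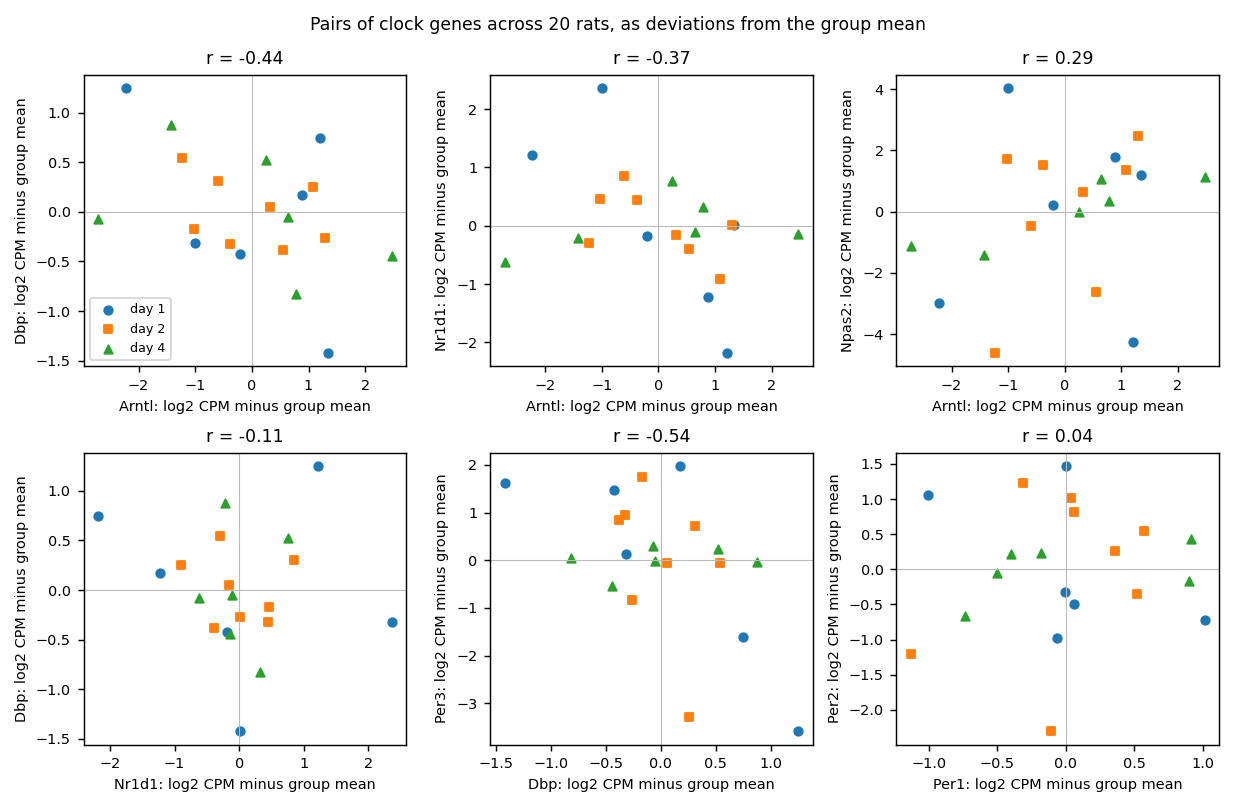
Deviation of log2 CPM from the group mean for 6 pairs of clock genes, 1 point per rat (20 rats), with the symbol giving the day and the Pearson r above each panel. The r runs from -0.54 (Dbp and Per3) to 0.29 (Arntl and Npas2), and points of the 3 days are intermixed.

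Over all 45 pairs of members, 24 had an r above 0 and 21 below, with a median of 0.02. The range ran from -0.68 for Arntl and Cry1 to 0.44 for Per1 and Dbp, and 4 pairs exceeded 0.5 in size. These pairs share libraries and depth and are given as a description with no test.

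The ratio of Dbp to Arntl within a library compares 2 genes of opposite phase and cancels the library's scale. Its log2 value was 1.96 ± 1.95 (SD, n = 20) and ran from -0.68 to 6.44. By group it was 2.403 ± 3.18 and 0.94 ± 0.60 at day 1 (control and water-loaded, n = 3 each), 2.20 ± 1.02 and 0.89 ± 1.37 at day 2 (n = 4 each), and 3.81 ± 2.79 and 1.82 ± 2.04 at day 4 (n = 3 each). Water-loaded rats had the lower mean at each day, with overlapping values. The ratio of Per3 to Arntl had day means of -1.21 ± 1.75 (SD, n = 6), 0.63 ± 2.31 (n = 8) and 2.81 ± 2.32 (n = 6), and ran from -3.90 to 0.60 at day 1, from -3.46 to 3.70 at day 2 and from 0.80 to 6.81 at day 4. No test was run on these ratios, and how often other pairs of genes separate these days was not computed.

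**Figure D4:**
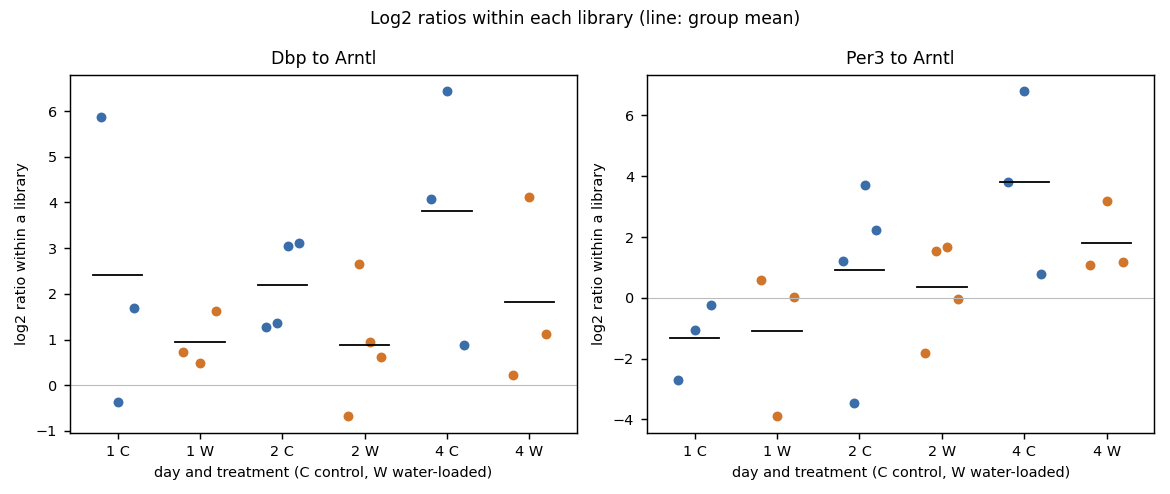
Log2 ratio of Dbp to Arntl (left) and of Per3 to Arntl (right) within each library, by day and treatment (C, control; W, water-loaded); lines are group means. The Per3 ratio runs up to 0.60 at day 1 and from 0.80 at day 4, while the Dbp ratio overlaps at all days.

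Of 17 further genes of the clock loop in the table, 13 passed the filter on low counts, and edgeR called 0 in each of the comparisons. At an unadjusted p under 0.05 there were 2 of 13 for day 2 minus day 1, against 24% of all genes tested. Nr1d2, which encodes REV-ERBβ, was at 23.1 ± 29.2 and 58.9 ± 20.8 CPM at day 1 (control and water-loaded, SD, n = 3), 54.4 ± 18.7 and 20.04 ± 10.3 CPM at day 2 (n = 4) and 13.8 ± 12.1 and 40.0 ± 15.2 CPM at day 4 (n = 3). Tef, a PAR bZip relative of Dbp, was at 36.2 ± 33.5 and 87.8 ± 76.7 CPM at day 1, 61.4 ± 22.1 and 65.7 ± 25.5 CPM at day 2 and 64.3 ± 5.33 and 82.9 ± 13.4 CPM at day 4. Hlf, the other relative, was listed at 0 in 5 of 6 groups. Rora, an activator of Arntl, was at 0 in all day 1 control rats and had the smallest adjusted p of this list for day 2 minus day 1 (0.0531).

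Of 14 output genes of the kidney clock, Cry2 among them, edgeR called 1 for the averaged water load, against 0.159% of all genes tested. It was Aqp2, the vasopressin-regulated water channel, which fell by 1.07 on the log2 scale (SE 0.19, adjusted p = 0.0262). The median of the 14 was -0.23, against 0.01 over all genes tested. This list shares Aqp2, Aqp4 and Avpr2 with the 11 principal cell markers, of which 10 had a difference below 0 and 2 were called lower, with a median of -0.28. The part of principal cell RNA in the output list was not tested. For day 2 minus day 1, 0 of the 14 were called by edgeR (5.83% of all genes) and 2 had an unadjusted p under 0.05 (24% of all genes).

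Genes induced by acute stimulation differed between the same days as Nr1d1. Of 18 immediate-early genes, all 18 had a day 2 minus day 1 difference below 0 and edgeR called 8 of them, with a median of -1.65. Over all genes tested 55.9% had a difference above 0, 5.83% were called, and the median was 0.15. Fosb (-4.56, adjusted p = 0.00143), Atf3 (-3.44, adjusted p = 0.00412), Zfp36 (-2.53, adjusted p = 0.00430) and Junb (-1.87, adjusted p = 0.0131) had the smallest adjusted p-values. Without the 2 outlying day 1 libraries, 17 of 18 were below 0 and 3 were called, with a median of -1.02. The summed level of these genes was 2527 to 29395 CPM in day 1 controls, 2322 to 11959 CPM in day 1 water-loaded rats, 2866 to 5664 CPM in day 2 controls and 1784 to 2707 CPM in day 2 water-loaded rats. Day 1 water-loaded rat 2, with the lowest Nr1d1 level of the 20 rats (5.06 CPM), had a sum of 11959 CPM. Day 1 water-loaded rat 3, with the second-highest Nr1d1 level (119 CPM), had a sum of 6907 CPM. The rat with the highest Nr1d1 and Dbp levels, day 1 control rat 1, had the sum of 29395 CPM. The same library had a summed level of 1624 CPM for 7 stroma markers, against 6.65 to 121 CPM in the other 19, and of 671 CPM for 6 endothelium markers, which ran up to 707 CPM in day 2 controls. Intercalated cell markers summed to 7849 to 8552 CPM in day 1 controls, 8681 to 10911 CPM in day 1 water-loaded rats, 9561 to 11843 CPM in day 2 controls and 9425 to 12296 CPM in day 2 water-loaded rats, and edgeR called 3 of these 8 markers higher for day 2 minus day 1. The part of the immediate-early genes and of these cell type markers in the fall of Nr1d1 was not tested.

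Among 14 rows of 13 glucocorticoid-responsive genes, edgeR called 1 higher and 1 lower for day 2 minus day 1 (5.83% of all genes tested were called). An unadjusted p under 0.05 was found for 7 of 14 (24% of all genes). The difference was above 0 for 9 rows and below 0 for 5 (above 0 for 55.9% of all genes). The median was 0.58, against 0.15 over all genes tested. Ddit4, an inhibitor of mTOR signalling, fell by 3.14 on the log2 scale (SE 0.56, adjusted p = 0.00328), and 1 of 2 rows of Tsc22d3, which encodes GILZ, was called higher (adjusted p = 0.0353). That row of Tsc22d3 was at 0 in all 6 day 1 rats and at 0.459 ± 0.717 and 0.840 ± 0.611 CPM (SD, n = 4 each) in day 2 control and water-loaded rats, so no fold is given. The other row of Tsc22d3, at 30.03 ± 33.8 and 52.9 ± 46.5 CPM at day 1 (n = 3 each) and 57.6 ± 20.4 and 62.2 ± 20.8 CPM at day 2, was not called (log2 difference 0.59, SE 0.49, adjusted p = 0.519). The part of glucocorticoid in the levels of Per1 or Nr1d1 was not tested.

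The genes whose log2 CPM followed Arntl most closely over the 20 libraries, of 7377 genes ranked, were Zwint (r = 0.84), Klhl12 (0.81), Gtf2f1 (0.79), Lipa (0.79) and Gstm1 (0.78). The first clock gene in that order was Nr1d2, at rank 1244 (0.33). The genes most like Dbp were Polr2a (0.84), Ppp2cb (0.81), Chd4 (0.80), Mcoln1 (0.79) and Dennd1a (0.79). Csnk1e was the first clock gene ranked there, at rank 876 (0.46). These correlations are over libraries that differ in day, treatment and depth, and are given with no test.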

How the data were processed

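RNA from microdissected cortical collecting ducts of 20 rats was amplified by a method made for single cells, per the labels' protocols. Trimmomatic 0.32, STAR 2.4.0.1, SAMtools, HTSeq and the rn6 build are named in the submitters' processing notes. The deposited table gives HTSeq read counts per gene and a second deposited table gives FPKM values; both were made by the authors. Lines of reads that HTSeq assigned to no gene, 31.5 to 35.6% of a library, stayed out of library sizes and tests. They include reads without a unique alignment, 21.3 to 26.9% of a library. The p-values measure the spread between rats, which includes amplification of small amounts of RNA.

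The counts were fitted with edgeR 4.0.16 (R 4.3.3; filterByExpr, TMM factors, robust quasi-likelihood test) with 1 mean for each of the 6 groups, and p-values were adjusted by Benjamini-Hochberg over all 14472 genes tested. Log2 CPM used a prior count of 2. Correlations used 100000 permutations of rats within groups, two-sided. Alternatives were DESeq2 1.42.0, limma 3.58.1 on log2(FPKM + 1) or log2(FPKM + 0.1), other filters and scaling, a replicate block, a covariate and left-out libraries. The fit was tested on counts simulated with the fitted spread, with changes at day 2 put into genes above 10 CPM. For day 2 minus day 1 it recovered 48 of 86 genes changed by 2 on the log2 scale (55.8%). Of 114 genes changed by 3 it recovered 98 (86.0%), with 2 false calls in the run of 14230 genes. Same-numbered rats of a day deviated together at day 2 (correlations of 0.15, 0.15, 0.15 and 0.24), as did differently numbered rats 1 with 2 (0.11, 0.12) and 3 with 4 (0.19, 0.20). Rats 1 or 2 and rats 3 or 4 of the other treatment deviated in opposite directions at day 2 (-0.20 to -0.11). What set these rats apart was not tested. Same-numbered rats did not deviate together at day 1 (-0.05, -0.06, 0.06) or day 4 (-0.00, -0.03, -0.09). All 10 members were named whatever their values; list genes were named where called, up to 4 per comparison, and other clock loop genes freely. The members, lists and pairs were chosen with earlier results of these data known. RefSeq promoters are of the GRCr8 build, not that of the files.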

Additional observations from a re-analysis of the deposited data

How the results depend on the processing

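The fall of Nr1d1 from day 1 to day 2 kept its direction in all 30 alternatives (log2 -2.88 to -1.20) and stayed past the threshold in 23 of them (adjusted p 0.000615 to 0.214). For day 2 minus day 1 the number of members called, 1 as reported, was 2 with DESeq2 size factors, with at least 5 CPM in 3 libraries and with DESeq2, and 0 with each of the 3 limma fits of log2 FPKM, with only the groups compared and with detected genes as a covariate. Leaving out 1 rat at a time gave 0 to 2, with 0 without day 1 control rat 1 or day 1 water-loaded rat 3 and 2, Dbp added, without day 1 control rat 2. Dbp was called in 4 of 30 alternatives (adjusted p 0.00716 to 0.720). For any difference between days the number, 1 as reported, was 3 (Nr1d1, Dbp and Per2) with DESeq2 and 0 with detected genes as a covariate and in the limma fits other than filtered log2(FPKM + 1), where the 1 called was Per2 (adjusted p 0.0491) and Nr1d1 had 0.205; leaving out 1 rat gave 0 to 1, and Nr1d1 was called in 6 of 20 such fits. Among control rats it was 0 as reported and 1 with at least 5 CPM in 3 libraries and with DESeq2, and 0 to 1 with 1 rat left out. The causes were not tested. The counts of 0 members for the water load comparisons were 0 under every alternative run. With the replicate block the water load comparisons called 0 members, as without it, and the block changed no call; days lie between blocks, so no paired fit of the day differences could be made. Fits of only the groups compared give no separate value where all 6 groups enter. That holds for the water load averaged over days, the interaction, and any difference between days averaged over treatments.

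No difference that passed the threshold changed sign. Among differences that did not pass it, the following reversed (log2, water load minus control unless days are named). With the 2 day 1 libraries set aside, Arntl was -0.72, Clock 0.043, Cry2 0.42 and Nr1d1 0.45 at day 1, Clock 0.078 and Cry2 0.13 averaged over days, and Per3 -0.053 for day 2 minus day 1. With the replicate block, Per2 was -0.13 at day 1, Npas2 -0.0049 at day 2, Clock 0.13 at day 4 and Nr1d1 -0.031 averaged. With only the groups compared, Cry2 was 0.0075 at day 1. With at least 5 CPM in 3 libraries, Cry1 was 0.0078 for day 4 minus day 2. With detected genes as a covariate, Cry2 was 0.058 at day 1, Npas2 -1.38 and Nr1d1 -0.036 at day 2, Clock 0.53, Npas2 -0.71 and Dbp 0.42 at day 4, Clock 0.37, Npas2 -1.02, Cry2 0.10 and Nr1d1 -0.23 averaged, and Clock 0.41 and Per3 -0.60 for day 2 minus day 1. With log2(FPKM + 1), with and without a filter, Clock was 0.21, Per3 0.035 and Dbp 0.045 at day 4, Clock 0.024 and Per3 0.10 averaged, and Clock 0.17 for day 4 minus day 2. With log2(FPKM + 0.1), Per3 was 0.10 at day 2, Clock 0.36, Per3 0.039 and Dbp 0.043 at day 4, Clock 0.044 and Per3 0.36 averaged, Npas2 0.0079 for day 2 minus day 1 and Clock 0.25 for day 4 minus day 2.

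Leaving out 1 rat at a time, the sign changed in these ranges. At day 1 they were Arntl -0.20 to 1.21, Npas2 -3.53 to 0.53, Per2 -0.98 to 0.89, Per3 -0.54 to 1.04, Cry2 -1.68 to 0.55 and Dbp -1.24 to 0.019. At day 2 they were Clock -0.60 to 1.12, Npas2 -0.57 to 0.74, Per3 -0.90 to 0.060, Cry1 -0.47 to 0.39, Cry2 -0.54 to 0.047 and Nr1d1 -0.11 to 0.45. At day 4 they were Clock -0.59 to 0.72, Per1 -1.09 to 0.11, Cry2 -0.023 to 0.48 and Dbp -0.65 to 0.22. Averaged over days they were Clock -0.48 to 0.15, Npas2 -0.79 to 0.59, Per3 -0.43 to 0.092, Cry2 -0.57 to 0.17 and Nr1d1 -0.36 to 0.54. For day 2 minus day 1 they were Clock -0.72 to 0.028 and Npas2 -0.94 to 1.12, and for day 4 minus day 2 Arntl -1.05 to 0.14, Clock -0.55 to 0.40 and Cry1 -0.54 to 0.30. The correlation of Nr1d1 and Dbp was 0.25 with no group mean removed and -0.41 to 0.16 with 1 rat left out, and that of Per1 and Per2 was -0.17 to 0.22.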

Other observations

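Low values of single genes in single libraries occurred in the clock genes as elsewhere. Of 160 values of the 8 members with a mean of at least 10 CPM, 5 (3.12%) were under 0.1 times the gene's median over libraries, against 3.62% over 7722 genes with such a mean. They were Arntl in day 4 control rat 2 (17 counts, 0.525 against a median of 15.4 CPM), Per2 in day 2 water-loaded rat 1 (163 counts), Per3 in day 1 control rat 1 (16 counts) and in day 2 control rat 2 (107 counts), and Cry2 in day 1 water-loaded rat 3 (54 counts). Day 1 control rat 1 and day 1 water-loaded rat 2 had 1770 and 1406 genes with such a value.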
